A study of Mus musculus with 6 samples.

Results

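The Schlafen genes were examined in mouse bone marrow mesenchymal stem cells (BMMSCs) after knockdown of Tet1 and Tet2. The members are the rows of the deposited table whose symbol is Slfn1, Slfn2, Slfn3, Slfn4, Slfn5, Slfn8 or Slfn9, 7 of 36870 distinct symbols. The rule is by name, and the family was taken up with earlier results of these data known. The RNA came from adherent cells grown out of the marrow of C57BL/6 mice and labelled as passage 2, whereas the methods give an earlier passage. The 3 control libraries were from cells given a non-targeting siRNA by the siRNA methods and the sample labels, and from vehicle-treated cells by the sequencing methods. The other 3 libraries were from cells given siRNAs against Tet1 and Tet2 together (siTet1/Tet2). A transient knockdown in a mixed adherent culture was thus compared, and no source used here says whether the 3 libraries of a group came from separate mice or cultures, so p-values measure only the spread between these libraries.

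Schlafen proteins take their name from the German word for sleep, because the first members slowed the growth of thymocytes. In the mouse they form 3 groups by size. Slfn1 and Slfn2 are short proteins with only the Schlafen core, Slfn3 and Slfn4 are intermediate, and Slfn5, Slfn8 and Slfn9 are long and carry a helicase-like region. Many members are induced by type I interferon, which acts through the receptor subunits Ifnar1 and Ifnar2 and the kinases Jak1 and Tyk2. Slfn2 is needed for the quiescence of T cells and monocytes and protects tRNA from cleavage, and Slfn4 is known from myeloid cells.

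All 7 members lie on chromosome 11 of GRCm38, between 82951349 and 83215154, a stretch of 263.8 kb by the GENCODE M21 annotation. From one end to the other the order is Slfn5, Slfn9, Slfn8, Slfn2, Slfn1, Slfn4 and Slfn3, with Slfn9 and Slfn8 on the minus strand and the other 5 on the plus strand. The longest transcripts of Slfn1 and Slfn2 have 1864 and 1664 bases in 2 exons each. Those of Slfn3 and Slfn4 have 2834 and 3958 bases, and those of Slfn5, Slfn8 and Slfn9 have 5979, 4011 and 5769 bases.

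The sequences upstream of the annotated starts were searched for GAAA followed by any 2 bases and a second GAAA, the core of the element that interferon-activated factors bind, on both strands of windows reaching from 250 bases before to 50 bases after the start (RefSeq starts on GRCm38.p6). The motif was found in 3 of 7 members, Slfn5, Slfn8 and Slfn9, against 3.99% of all 27025 genes with such a window. The gamma-activated site TTCNNNGAA, which has the same form on both strands, was in 0 of 7 members and in 9.55% of all genes. The 250 bases before the start are shown for these 3 members, with the motif in capitals, and for Slfn2, the most abundant member, and Slfn1, the member with the largest fall, in which the letters do not occur.
Slfn5 (chr11:82951852-82952101, plus strand): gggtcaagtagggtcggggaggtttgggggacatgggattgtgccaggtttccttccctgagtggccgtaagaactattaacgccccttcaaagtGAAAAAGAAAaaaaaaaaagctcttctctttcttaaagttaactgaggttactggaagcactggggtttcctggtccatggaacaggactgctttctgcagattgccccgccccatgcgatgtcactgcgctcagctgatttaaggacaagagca
Slfn9 (chr11:82991831-82992080, minus strand): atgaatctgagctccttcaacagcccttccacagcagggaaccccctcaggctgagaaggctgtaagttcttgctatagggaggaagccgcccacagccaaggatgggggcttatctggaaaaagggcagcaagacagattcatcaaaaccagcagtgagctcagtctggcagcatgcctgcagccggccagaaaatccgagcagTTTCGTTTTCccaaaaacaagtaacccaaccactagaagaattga
Slfn8 (chr11:83020811-83021060, minus strand): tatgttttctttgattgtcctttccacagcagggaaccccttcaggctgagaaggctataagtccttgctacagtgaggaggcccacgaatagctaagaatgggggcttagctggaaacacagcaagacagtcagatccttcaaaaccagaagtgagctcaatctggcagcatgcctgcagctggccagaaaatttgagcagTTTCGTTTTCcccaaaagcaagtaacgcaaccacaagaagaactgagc
Slfn2 (chr11:83064862-83065111, plus strand): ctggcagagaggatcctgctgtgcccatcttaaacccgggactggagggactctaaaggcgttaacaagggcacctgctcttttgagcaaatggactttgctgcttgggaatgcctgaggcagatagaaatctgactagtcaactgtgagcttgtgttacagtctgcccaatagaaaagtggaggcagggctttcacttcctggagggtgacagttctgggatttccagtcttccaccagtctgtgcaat
Slfn1 (chr11:83116570-83116819, plus strand): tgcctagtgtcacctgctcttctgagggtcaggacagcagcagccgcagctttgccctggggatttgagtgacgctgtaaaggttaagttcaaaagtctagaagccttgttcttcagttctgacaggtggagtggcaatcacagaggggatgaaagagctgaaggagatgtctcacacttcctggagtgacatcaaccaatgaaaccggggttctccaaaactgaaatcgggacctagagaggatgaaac
In Slfn9 and Slfn8 the match lies on the opposite strand, where it reads GAAAACGAAA, and begins 45 and 48 bases before the start. Slfn8 has a further RefSeq start, and the same match begins 136 bases before that one. In Slfn5 the match begins 155 bases before the RefSeq start used, which lies inside the GENCODE gene. The windows of Slfn8 and Slfn9 were identical at 252 of 300 bases (84.0%), by global alignment, and the other pairs of members at 55.7% to 62.3%. Member windows held 2 to 7 CpG dinucleotides, where the median of all 32851 windows was 7. A match of letters describes the sequence and does not show that a factor was bound.

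The table holds RPKM, a read count divided by gene length and library size, so levels of different members can be set side by side. It gives no read totals. From the steps between low RPKM values the libraries were estimated at 32200000 to 38500000 reads, with 55.6% to 61.3% of those values within 0.1 of a whole read where 20% is expected by chance for a depth fixed beforehand. Because each depth was the value that matched best, these totals are estimates. The knockdown target Tet2 had RPKM of 2.57, 4.08 and 3.71 in the control group and of 0.358, 0.238 and 0.202 in the siTet1/Tet2 group, and Tet1 was at 0.032, 0.098 and 0.05 RPKM against 0.001, 0.01 and 0.001 RPKM, where 0.001 is the lowest value listed. Tet3, which was not targeted, was at 5.91, 6.39 and 8.80 RPKM against 6.96, 7.54 and 8.48 RPKM. Of 11 stromal markers listed, Thy1 and Lepr stayed under 0.15 RPKM in every library, while Ly6a, Cxcl12, Pdgfrb, Eng and Pdgfra averaged 152, 38.9, 30.2, 23.8 and 9.92 RPKM in the control libraries. The summed RPKM of the 11 was 1026 to 1472 in the control and 189 to 317 in the siTet1/Tet2 libraries, and 7 of the 9 tested fell while Vcam1 rose. The sum of the 10 macrophage markers in the table, of 11 listed, was 5607 to 7330 and 12560 to 15470 RPKM. Most of it was Lyz2. By limma 6 of 10 were higher and 2 lower. Only 1 was lower without control replicate 2 or 3 or without siTet1/Tet2 replicate 1 or 2. The lower count was also 1 without a filter on low values, with median ratio or quantile scaling and with unmoderated gene-wise variance. The higher count was 4 without control replicate 2 or siTet1/Tet2 replicate 2 or 3. It was 7 with median ratio scaling or the replicate block. All 3 Cd3 genes of T cells were at or under 0.027 RPKM.

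In control BMMSCs, Slfn2 was the most abundant member and Slfn4 the least. The order of the control means, in RPKM with SD over 3 libraries, was Slfn2 at 188 ± 23.2, Slfn5 at 66.3 ± 7.09, Slfn8 at 17.9 ± 1.50, Slfn9 at 12.6 ± 1.43, Slfn3 at 10.6 ± 0.389, Slfn1 at 3.21 ± 0.334 and Slfn4 at 1.32 ± 0.192. No neighbours in this order overlapped between libraries. In the siTet1/Tet2 libraries Slfn2 and Slfn5 stayed on top, whereas Slfn9, Slfn8 and Slfn3 overlapped with their neighbours, as did Slfn4 and Slfn1 at the bottom.

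**Figure D1:**
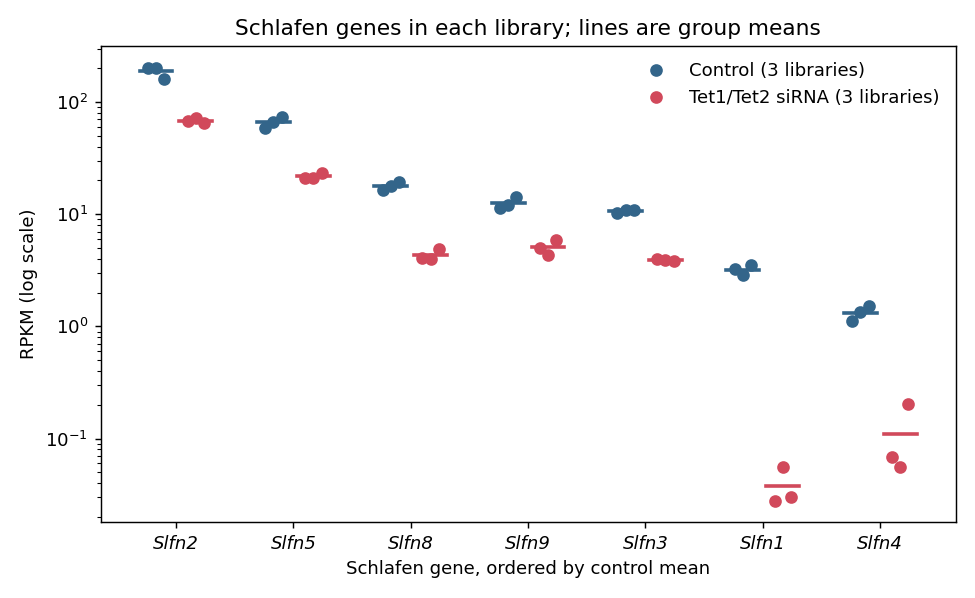
RPKM of the 7 Schlafen genes on a log axis, with a point for each of the 3 control and 3 siTet1/Tet2 libraries and a line at each group mean. For every gene the siTet1/Tet2 points lie below all control points, and Slfn1 and Slfn4 show the widest gaps.

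All 7 members fell in siTet1/Tet2 BMMSCs, and none rose. Each had an adjusted p under 0.05 from limma on log2(RPKM + 1) with Benjamini-Hochberg adjustment over the 13266 genes tested, of which 29.8% were lower and 14.7% higher by the same rule. In all 7 the 3 siTet1/Tet2 libraries lay below the 3 control libraries, as they did in 35.9% of all genes tested, while the reverse held for 0 members and 19.8% of all genes. At p under 0.05 before adjustment with a change over 2-fold on the log2(RPKM + 1) scale, all 7 were lower, against 5.63% of all genes. The median log2 fold change of the members was -1.45, and that of all genes tested was -0.09. Slfn1 passed the minimum of 0.1 RPKM only through its control libraries. Without that minimum all 7 members still had an adjusted p under 0.05 in limma.

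Among the short members, Slfn2 had RPKM of 200.6, 202.8 and 161.5 in the control group and of 67.2, 72.0 and 65.5 in the siTet1/Tet2 group. Control replicate 3 was the lowest control and still stood far above the highest siTet1/Tet2 library. Slfn2 changed by -1.45 log2 units with a standard error of 0.09 (limma, adjusted p = 1.66e-05), and the control mean was 2.76 times the siTet1/Tet2 mean. Slfn1 had RPKM of 3.24, 2.86 and 3.53 in the control group and of 0.028, 0.056 and 0.03 in the siTet1/Tet2 group. It was nearly undetected after knockdown, with about 2, 4 and 2 reads at the estimated depth, against about 225, 175 and 212 reads in the control libraries. On the log2(RPKM + 1) scale, which understates the change of low genes, Slfn1 fell by 2.02 (standard error 0.08, adjusted p = 1.53e-06 from limma). The ratio of its group mean RPKM was 84.5, and from the summed estimated reads it was 83.3 with a 95% interval of 42.0 to 193.8 that covers counting error only.

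Of the intermediate members, Slfn3, known from T cells and the gut epithelium, had RPKM of 10.2, 10.9 and 10.8 in the control group and of 4.01, 3.87 and 3.86 in the siTet1/Tet2 group. These were the tightest replicates of the family, and the groups stood well apart. In limma Slfn3 changed by -1.24 log2 units with a standard error of 0.08 (adjusted p = 1.25e-05), and the ratio of the means was 2.71. Slfn4 had RPKM of 1.12, 1.33 and 1.51 in the control group and of 0.069, 0.056 and 0.205 in the siTet1/Tet2 group. Replicate 3 was the highest in both groups, and in the siTet1/Tet2 group it held about 28 reads where the others held about 10 and 9. Slfn4 changed by -1.06 log2 units with a standard error of 0.09 (limma, adjusted p = 5.01e-05). By the ratio of the group means, 12.0, it had the second largest fall of the family, whereas on the log2(RPKM + 1) scale it had the smallest. That ratio was 10.1, 9.63 and 21.1 without siTet1/Tet2 replicate 1, 2 and 3, comparisons added after the data were seen.

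The long members held the rest. Slfn5, an interferon-induced nuclear protein, had RPKM of 59.0, 66.6 and 73.2 in the control group and of 21.0, 21.1 and 23.1 in the siTet1/Tet2 group. All siTet1/Tet2 values lay under the lowest control value by a wide margin, and limma gave a change of -1.56 log2 units with a standard error of 0.09 (adjusted p = 7.10e-06). Slfn8, expressed in lymphocytes and myeloid cells, was at 16.3, 18.0 and 19.3 RPKM against 4.07, 4.01 and 4.94 RPKM. It fell by 1.82 on the log2 scale (standard error 0.10, adjusted p = 7.06e-06 from limma), the largest fall among the members above 10 RPKM. Slfn9, its close relative, was at 11.5, 12.2 and 14.2 RPKM against 5.04, 4.36 and 5.84 RPKM. Slfn9 changed by -1.16 log2 units with a standard error of 0.12 (limma, adjusted p = 0.000119), and the ratio of its means was 2.48, the smallest in the family.

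**Figure D2:**
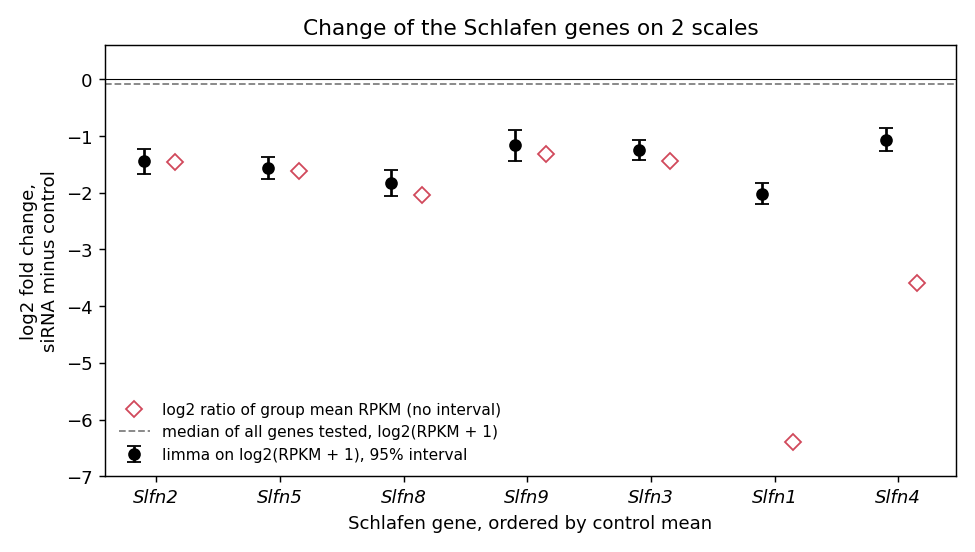
Change of each Schlafen gene between siTet1/Tet2 and control libraries in log2 units, as the limma estimate on log2(RPKM + 1) with its 95% interval (filled circles) and as the log2 ratio of the group mean RPKM (open diamonds, no interval). Both scales are closer for the 5 abundant members, though the log2 ratio of Slfn3, -1.44, lies outside its limma interval of -1.41 to -1.06. They part most for Slfn1 and Slfn4. Their ratios of 84.5 and 12.0 exceed what the limma scale shows. With 1 library left out the Slfn4 ratio was 9.63 to 21.1.

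Of the 21 pairs of members, 16 had within-library ratios that did not overlap between the groups and 5 had ratios that did. Every pair with Slfn1 or Slfn4, both low after knockdown, was among the 16. The pairs share genes, and the share over pairs of all genes was not computed, so the count is no result about the family. Slfn8 exceeded Slfn9 in the control libraries, with a within-library ratio of 1.42, 1.48 and 1.36, and was below it in the siTet1/Tet2 libraries, with 0.807, 0.918 and 0.845. The ratio of Slfn1 to Slfn4 went from 2.89, 2.15 and 2.34 to 0.406, 1.00 and 0.146, the latter from few reads. Such ratios do not change when a library is rescaled as a whole. With 3 libraries against 3, the exact two-sided permutation test gave p = 0.1 for either ratio, the smallest it can give. Any ratio that does not overlap gets this p, so the test adds nothing to the separation. The ratio of Slfn2 to Slfn5 overlapped between the groups, at 3.40, 3.05 and 2.21 in the control and 3.20, 3.41 and 2.84 in the siTet1/Tet2 libraries.

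The summed RPKM of the 7 members was 301.9, 314.6 and 284.1 in the control libraries and 101.4, 105.5 and 103.4 in the siTet1/Tet2 libraries, a 2.90-fold lower mean. Slfn2 made up 62.6% ± 5.06 (SD, n = 3) of the control sum and 65.9% ± 2.50 (SD, n = 3) of the siTet1/Tet2 sum, and Slfn5 made up 22.2% ± 3.23 and 21.0% ± 1.18. Both shares overlapped between the groups. The share of Slfn8 went from 5.97% ± 0.730 to 4.20% ± 0.514, that of Slfn1 from 1.07% ± 0.166 to 0.0366% ± 0.0143 and that of Slfn4 from 0.442% ± 0.0809 to 0.107% ± 0.0798. The siTet1/Tet2 libraries were below all control libraries in these 3 shares. Slfn2 and Slfn5 accounted for 61.0% and 22.6% of the RPKM that the family lost.

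**Figure D3:**
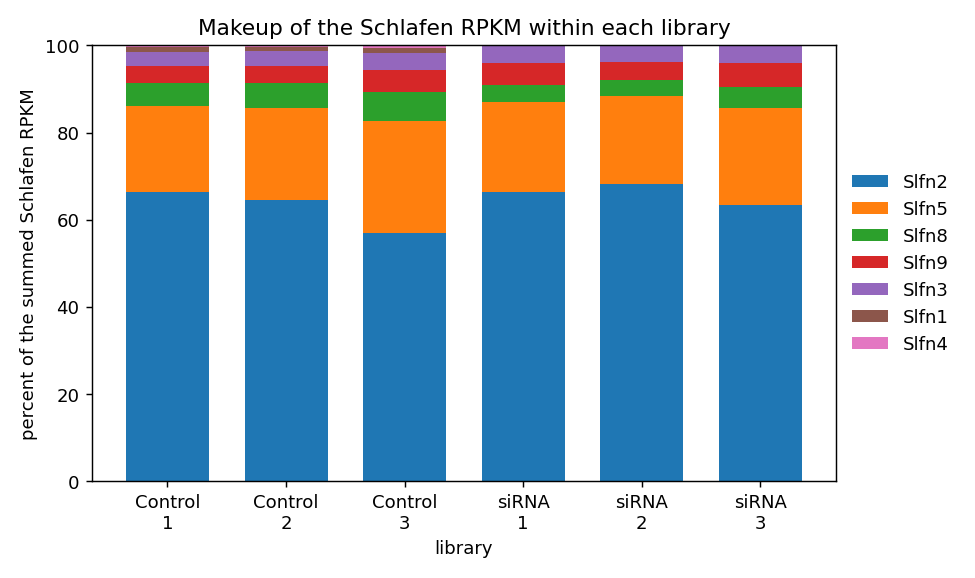
Share of each Schlafen gene in the summed Schlafen RPKM (percent, bars from 0 to 100) within each of the 3 control and 3 siTet1/Tet2 libraries. Slfn2 holds between 56.9% and 68.3% in every library, and the bands of Slfn1 and Slfn4 nearly vanish in the siTet1/Tet2 libraries.

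Reads could have been split between relatives, since how multiply mapping reads were treated is not given in the sources used here. The longest transcript of each member was cut into windows of 100 bases, the length of a read, and compared with the transcripts of all other genes. No window of Slfn1 occurred elsewhere (0 of 1765), and 0.128% of those of Slfn2 and 0.285% of those of Slfn4 did. For Slfn3, Slfn8 and Slfn9 the share was 3.62%, 3.71% and 3.90%, with 50 windows common to Slfn8 and Slfn9. Slfn5 shared 6.60% of its windows with Slfn5os, a transcript on the opposite strand that the table lists at 0.001 RPKM in all 6 libraries. The use of strand in the counting is not given either. Slfn10-ps, the pseudogene beside Slfn8, had no row under that symbol, so its level is not known. It shared 2.68% of the windows of Slfn8 and 3.19% of those of Slfn9.

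Of the other Schlafen loci listed, the 2 with a row, Slfn14 and Slfnl1, were close to the limit of detection. Slfn14, a ribosome-associated nuclease of platelets at the far end of the cluster, was at 0.029, 0.001 and 0.001 RPKM in the control and 0.021, 0.016 and 0.001 RPKM in the siTet1/Tet2 libraries, or no more than about 4 reads. Slfnl1, on chromosome 4, was listed at 0.001 RPKM in all 6 libraries. Neither reached the minimum of 0.1 RPKM, so they were not tested.

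Smaller changes were measured around the cluster on the log2(RPKM + 1) scale. Of 14 listed neighbours, from Cct6b to Taf15, 10 were tested, with a median log2 fold change of -0.13 that became 0.003 after quantile normalization. Nle1 and Mmp28 were lower and Rffl was higher with an adjusted p under 0.05 from limma (2 and 1 genes). Mmp28 and Rffl were picked out after their values were seen. By the ratio of the group means Mmp28, at 1.12 against 0.291 RPKM, fell 3.87-fold, more than Slfn2, Slfn3, Slfn5 or Slfn9. Ap2b1, a clathrin adaptor subunit and the most abundant neighbour, was at 44.1 ± 0.366 in the control and 41.4 ± 0.471 RPKM in the siTet1/Tet2 libraries (SD, n = 3, adjusted p = 0.2 from limma). Taf15, an RNA-binding protein, had a log2 fold change of -0.50 (adjusted p = 0.133 from limma, and 0.000304 with the replicate number as a block). Nle1, a ribosome assembly factor, fell by 0.37 on the log2 scale (adjusted p = 0.00666 from limma), and its adjusted p was 0.0668 after quantile normalization. Unc45b, the nearest neighbour on the Slfn5 side, was at or under 0.037 RPKM in every library and was not tested.

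**Figure D4:**
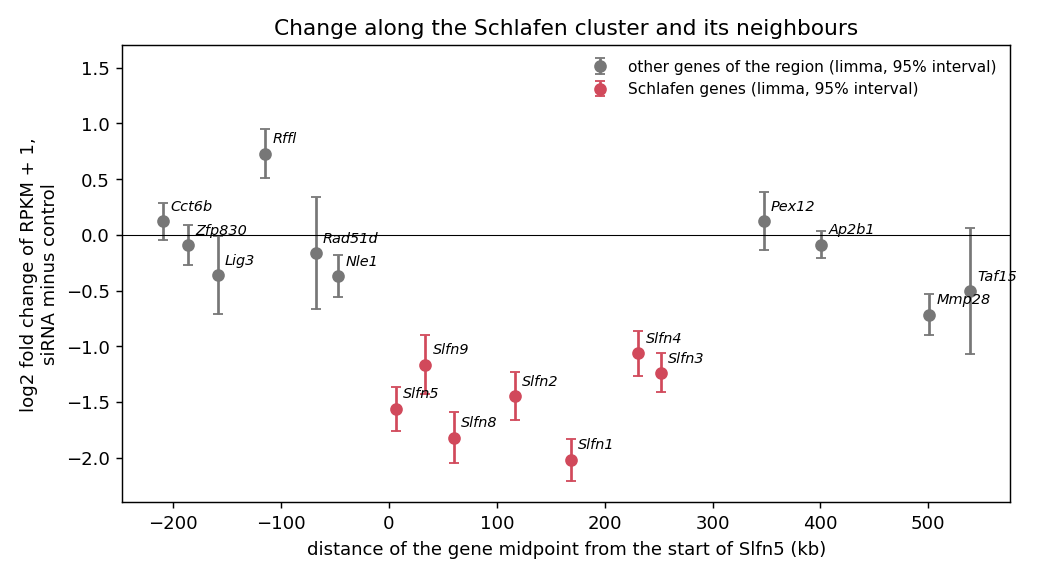
The log2 fold change of RPKM + 1 between siTet1/Tet2 and control libraries (limma, bars are 95% intervals) against the distance in kb from the start of Slfn5, for the 7 Schlafen genes and the 10 neighbouring genes tested. The Schlafen genes lie between -2.02 and -1.06, and their neighbours between -0.72 and 0.73.

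Genes of the interferon pathway were set beside the Schlafen genes from lists compiled by hand. Of 14 interferon signalling genes tested, 8 were lower and 1 was higher with an adjusted p under 0.05 from limma, and 4 were higher after quantile normalization. The receptor subunit Ifnar2 was at 109 ± 9.16 RPKM in the control and 110.4 ± 6.12 RPKM in the siTet1/Tet2 libraries (SD, n = 3, adjusted p = 0.89 from limma). The type II receptor subunit Ifngr1 had a log2 fold change of 0.16 (adjusted p = 0.0769 from limma). The adjusted p of Ifngr1 was 0.014 with median ratio scaling, 0.00466 after quantile normalization and over 0.05 in every other alternative. Irf7, which drives interferon gene transcription, fell by 5.05 on the log2 scale (adjusted p = 7.20e-06 from limma). All 18 interferon-response genes tested were lower with an adjusted p under 0.05, with a median log2 fold change of -3.41. The 3 most abundant of them, Bst2, Isg15 and Oas1a, fell by 1.67, 4.40 and 2.28 on the log2 scale, against the median of -1.45 for the members. No test of the difference between the lists was run.

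Macrophage and stromal markers moved with the groups and their part in the fall of the Schlafen genes was not tested. In a bulk library, fewer cells of a type and less RNA per cell cannot be told apart. Lyz2, lysozyme of macrophages, was at 4439 RPKM on average in the control and 11321 RPKM in the siTet1/Tet2 libraries, with an adjusted p of 0.001 from limma that became 0.455 after quantile normalization and stayed under 0.05 in every other alternative. Cd68, a lysosomal protein of macrophages, was at 875 ± 96.0 and 1316 ± 61.3 RPKM (SD, n = 3). Csf1r, the receptor for macrophage growth factor, was at 499 ± 20.5 and 604 ± 22.4 RPKM. Its adjusted p was 0.0173 from limma and over 0.05 in 3 alternatives, up to 0.0806. Of the 10 macrophage markers tested, 6 were higher and 2, Fcgr1 and Mrc1, lower. Fcgr1 fell from 109 to 27.8 RPKM (adjusted p = 3.09e-06 from limma, under 0.05 in every alternative). Mrc1 fell from 170 to 141 RPKM (adjusted p = 0.0327 from limma, over 0.05 in 8 alternatives). Ptprc was at 52.6 and 53.0 RPKM. The collagen genes Col1a1 and Col1a2 and the surface antigen gene Ly6a, the most abundant stromal markers listed, fell by 2.78, 2.55 and 3.20 on the log2 scale. Markers of other blood cells were mostly low. Of the T cell list, Cd4 rose from 2.56 to 8.06 RPKM on average, and Cd247 and Lck stayed under 0.8 RPKM. Cd79b, the only B cell marker tested, rose from 0.533 to 1.14 RPKM (adjusted p = 0.0217 from limma), but its adjusted p was over 0.05 in 5 alternatives, up to 0.222, among them the fits without control replicate 2, siTet1/Tet2 replicate 2 or siTet1/Tet2 replicate 3. Of 2 neutrophil markers tested, S100a8 rose from 1.95 to 12.7 RPKM and Camp fell from 1.45 to 0.058 RPKM. Pf4 of platelets and some macrophages rose from 235 to 603 RPKM, and Itga2b of platelets stayed under 0.2 RPKM. Of 3 endothelial genes, Kdr fell from 1.58 to 0.604 RPKM and Cdh5 had an adjusted p of 0.0613 from limma. Pecam1 rose from 0.175 to 0.377 RPKM (adjusted p = 0.0272 from limma), but its adjusted p was over 0.05 in 5 alternatives, up to 0.166, among them the fits without control replicate 2 or 3 and without siTet1/Tet2 replicate 1 or 3.

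The genes whose profile was nearest to the mean profile of the members were sought over the 6 libraries, as the root mean squared difference of log2(RPKM + 1) after the control mean of each gene was subtracted. The nearest 5 were Igf2bp2, Parm1, Dtx3l, Clmp and Olfml2b, with differences from 0.0516 to 0.0618 log2 units. They include an RNA-binding protein (Igf2bp2), a ubiquitin ligase known as an interferon-response gene (Dtx3l), a cell adhesion molecule (Clmp) and a secreted matrix protein (Olfml2b). Of the members, Slfn5 lay nearest to the mean profile, at 0.0808, and Slfn1 farthest, at 0.392. With 6 libraries in 2 groups, this measure mainly reflects the size of the difference between the groups.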

How the data were processed

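RNA-seq of 3 control and 3 siTet1/Tet2 libraries of BMMSCs was used. The authors trimmed adaptors, mapped paired reads to GRCm38, estimated abundance with DNASTAR Lasergene and deposited RPKM values on a linear scale for 36915 rows, which the methods call FPKM. A column of the authors' p-values for the same comparison was not used. For 37 symbols listed more than once only the row of highest mean entered the tests. No member was listed more than once.

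All genes averaging 0.1 RPKM or more were tested as log2(RPKM + 1) with limma 3.58.1 in R 4.3.3 (lmFit, eBayes with trend, two-sided), with Benjamini-Hochberg adjustment over all 13266 genes. The methods give unpaired two-tailed tests for comparing 2 groups and name no separate test for RNA-seq. On simulated data of 13177 genes limma recovered 200 of 200 genes changed by 1 log2 unit and called 15 of 12977 unchanged genes. The changed genes were drawn from those averaging over 1 on the log2(RPKM + 1) scale. Recovery of lower genes, Slfn4 among them, was not tested, and far fewer genes were changed than the data call. A pairing check correlated deviations from the group means of libraries with the same replicate number, which gave 0.149, 0.117 and 0.462. All were over 0.1, so the numbers were used as a block in a further fit. However, control replicate 1 with siRNA replicate 2 gave 0.332. Control replicate 2 with siRNA replicate 1 gave 0.205, and both exceed the same-number values of these controls. The pairing comes from these values alone.

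Depth was estimated in Python 3.11.15 from the low RPKM of single-transcript GENCODE M21 genes, and reads of a member from its longest transcript. All 7 members matched the RefSeq promoter table (GRCm38.p6). The members, the gene lists (other Schlafen loci, interferon signalling and response, neighbours, tRNA cleavage, proliferation and cell type markers) and the tests were chosen with earlier results of these data known. Named besides the members were the Tet genes, the 3 most abundant tested genes of each list and the 5 nearest profiles. Vcam1, Thy1, Lepr, Cxcl12, Pdgfrb, Eng, Pdgfra, the Cd3 genes, Unc45b, Mmp28 and Rffl were named after their values were seen. So were Fcgr1, Mrc1, Ptprc, Ccnb2 and Mki67. A gene of a list is not reported here. Alternatives were other pseudocounts, filters, scalings and variance models, the replicate block, sums of repeated symbols and each library left out.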

Additional observations from a re-analysis of the deposited data

How the results depend on the processing

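The direction and an adjusted p under 0.05 of each member were kept under every alternative run for it, 17 for each member but Slfn4, which has 16 because a mean of at least 1 RPKM removed it. The highest adjusted p was 0.0112, for Slfn9 without a filter on low values. The log2 fold change ranged from -6.11 to -1.89 for Slfn1 and from -3.67 to -0.90 for Slfn4, where pseudocounts of 0.1 and 0.01 gave the larger falls by construction, and the other members ranged between -2.04 and -1.02. With the thresholds of p under 0.05 and a fold over 2, the 7 lower members became 6 after quantile normalization, which left Slfn4 at -0.90, and 6 under the stricter minimum. Each fit without 1 library kept 7 lower members.

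The background moved more. Of all genes, 3952 were lower and 1953 higher, against 2514 and 1230 without the filter, where 36870 genes were tested, and 2627 and 3607 after quantile normalization. The share of lower genes among those called was 66.9%, 52.7% with median ratio scaling and 42.1% after quantile normalization, and the median over all genes, in log2 units, went from -0.09 to 0.06 after the latter. That of the members went from -1.45 to -1.37. The fit with the replicate block called 7 members lower, with a highest adjusted p of 2.27e-05, and 4468 lower and 2248 higher genes, and it changed no call of a member. Slfn1 after knockdown and Slfn14 rest on about 4 reads or fewer a library, so smaller differences there could not be seen at this depth.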

Other observations

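Genes around the known roles of Schlafen proteins were counted in the same fit. Of 6 genes that act on tRNA cleavage, 2 fell and 1 rose (adjusted p under 0.05 from limma), near the 29.8% and 14.7% of all genes tested. The counts are thus no result about these genes. Their median was -0.13 log2 units, or 0.01 after quantile normalization. Rnh1, the inhibitor of the ribonuclease angiogenin, was at 264 ± 34.9 RPKM in the control and 337 ± 27.2 RPKM in the siTet1/Tet2 libraries (SD, n = 3, adjusted p = 0.028 from limma). Nsun2, which methylates tRNA, fell by 0.46 on the log2 scale, and Ssb, which binds new tRNA, fell by 0.64. The adjusted p of Rnh1 was over 0.05 under 5 alternatives and that of Ssb under 1, with 0.222 and 0.0707 as the highest.

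Of 11 proliferation genes, 3 fell and 2 rose (adjusted p under 0.05 from limma), near the 29.8% and 14.7% of all genes tested. Their median was -0.06 log2 units, or 0.04 with median ratio scaling. Ccnb2 rose from 14.5 to 29.9 RPKM (adjusted p = 3.08e-05 from limma, under 0.05 in every alternative). Mki67 rose from 15.1 to 22.3 RPKM (adjusted p = 0.0378 from limma, over 0.05 in 7 alternatives, up to 0.336). Only 1 rose without control replicate 1, control replicate 2 or siTet1/Tet2 replicate 1 and after scaling to the same sum, and 3 rose with median ratio or quantile scaling. Ccnd1, the cyclin of early cell cycle entry, fell from 297 ± 5.76 to 104 ± 19.1 RPKM (SD, n = 3), a log2 fold change of -1.52 (adjusted p = 4.34e-05 from limma), close to that of Slfn2 and Slfn5. Pcna and Top2a, genes of DNA replication and chromosome segregation, had log2 fold changes of -0.06 and -0.25 (adjusted p = 0.637 and 0.0712 from limma). With the replicate number as a block, Top2a had an adjusted p of 0.0153, and 4 genes of the list fell.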
